A study of Mus musculus with 2 samples.

Results

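The small-subunit ribosomal protein genes were examined in single nuclei of mouse thalamus after sham operation or cortical ablation injury. Members were all genes whose symbol is Rps followed by a number, with at most 1 letter and 1 more digit, together with Rpsa. The rule left out the Rps6k kinases and the pseudogenes marked -ps. It found 32 of the 32285 genes in the count tables, and all of them were kept whatever their counts. Rps4l, Rps3a2 and Rps3a3, copies that the rule could take, had no row with that symbol. Both groups were female C57BL/6J mice aged 3 months, and the labels name no transgene or other allele. The injury group had sensory and motor cortex of 1 hemisphere ablated, the sham group had a sham operation, and the thalamus of the operated side was dissected 21 days later. Each group was 1 library made from nuclei pooled over 4 mice that carry no mark to tell them apart. No difference given here therefore has a replicate check and none was tested. Intervals are exact, at 95%, and cover counting error only, not the spread between mice. Values are counts of unique molecular identifiers (UMIs, 1 per captured RNA molecule) summed over the nuclei of a class and scaled to counts per 1e6 UMIs of that class (CPM). Each ratio divides the injury level by the sham level and is given as its log2, so that a value below 0 is a lower level in the injury library.

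The small (40S) subunit of the ribosome binds the mRNA, and together with initiator tRNA it finds the start codon and reads the message. Its proteins are made in equimolar amounts, enter the nucleolus and are built onto the ribosomal RNA, and the finished subunit is exported to the cytoplasm. The mRNAs of these proteins are short, abundant and mostly cytoplasmic, and in mammals most start with a run of pyrimidines (the 5′ terminal oligopyrimidine, or TOP, motif) through which the kinase mTOR and the protein Larp1 set their translation and stability. A nucleus holds only a small part of the mRNA of such genes, so nuclear libraries count transcripts on their way out, any that stay, and cytoplasmic RNA carried along with the nuclei, and these could not be told apart here.

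After the filters, 16373 sham nuclei and 21777 injury nuclei were kept, with a median of 7190 and 6810 UMIs. The members took 86259 UMIs, or 628 CPM, in the sham library and 85384 UMIs, or 477 CPM, in the injury library. The libraries shared 101 barcode sequences among the kept nuclei. Nuclei were clustered without the ribosomal genes and named from marker genes, and each name stands for "like" that class. Glutamatergic neurons held 11680 sham and 12201 injury nuclei, GABAergic neurons 1980 and 3279, oligodendrocytes 991 and 2301, astrocytes 209 and 508, oligodendrocyte precursors 108 and 165, and microglia 27 and 154. The markers fitted the names: Slc17a6 and Slc17a7, the vesicular glutamate transporters, summed in glutamatergic neurons to 191 CPM (sham) and 177 CPM (injury) and in GABAergic neurons to 14.3 and 16.1 CPM. A cluster of 175 sham and 2 injury barcodes stood apart and entered no class. It had a median of 666 UMIs in the sham library and was led by Rps3, although no ribosomal gene had been used for clustering. Its sham barcodes held 3078 CPM (2785 to 3394) of member UMIs, but only 0.467% of all member UMIs of the sham library, and its part in the results was not tested.

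The start sites of the members were described first. RefSeq promoters on GRCm38.p6, which run from 250 bases before to 50 after a start, were found for 24 of the 32 members, with 29 promoters in all. The 6 letters CGGAAG, the core that ETS factors such as GABPA recognise, stood on either strand in 21 of these 29 promoters (72.4%) and in 16.9% of all 32851 promoters of the table. An uninterrupted run of 5 or more pyrimidines that began at the annotated start was present in 24.1% of member promoters and in 4.44% of all, and the median run was 0 bases in both. This measure misses a run where the annotated start is off by a few bases. Anywhere from 25 bases before to 20 bases from the start, 37.9% of member promoters held a run of 8 or more, against 18.1% of all. The median longest run there was 7 bases in members and 5 in all. The letters TATAAA were present in 6.90% of member promoters and in 13.6% of all. These matches describe the letters in the window only. The following starts are shown because they belong to the members with the lowest and the highest ratios in glutamatergic neurons or to those with the longest pyrimidine runs. Each shows 25 bases before and 20 bases from the RefSeq start, 5′ to 3′, with capitals for the pyrimidine run at the start.
Rps21, lowest ratio, chr2:180257354-180257398, plus strand: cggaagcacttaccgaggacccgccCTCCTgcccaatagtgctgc
Rps21, second annotated start, chr2:180257424-180257468, plus strand: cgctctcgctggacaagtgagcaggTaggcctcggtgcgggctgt
Rps7, second lowest ratio, chr12:28635934-28635978, minus strand: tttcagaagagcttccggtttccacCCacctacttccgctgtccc
Rps15a, among the highest ratios, chr7:118116128-118116172, minus strand: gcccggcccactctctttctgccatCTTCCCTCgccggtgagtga
Rps4x, among the highest ratios, chrX:102189372-102189416, minus strand: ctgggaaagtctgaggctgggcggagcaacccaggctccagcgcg
Rps10, longest run, chr17:27635225-27635269, minus strand: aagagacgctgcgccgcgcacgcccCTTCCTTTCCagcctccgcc
Rps6, long run, chr4:86857348-86857392, minus strand: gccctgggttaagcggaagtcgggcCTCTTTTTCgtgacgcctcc
Rps18, long run, chr17:33955646-33955690, minus strand: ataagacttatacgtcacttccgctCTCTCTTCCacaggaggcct
Rps15a, with 8 pyrimidines at its annotated start, and Rps4x, with none there, both lay at the high end of the ratios. Over the 24 members with a promoter, the longest run at an annotated start of each member was ranked against its glutamatergic ratio. The rank correlation was -0.09, given as a description over genes of the same 2 libraries, and it depends on the exact annotated base.

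To describe how the members differed between the libraries, their levels were first compared in glutamatergic neurons, the class with the most UMIs. All 32 members had a lower level in the injury library, while 47.2% of the 21728 genes with at least 20 UMIs in this class had a ratio below 0. The members summed to 601 CPM in the sham library (63264 UMIs) and 443 CPM in the injury library (50465 UMIs), a ratio of -0.44 (-0.45 to -0.42). The median member ratio was -0.38, with quartiles of -0.51 and -0.33, and the median over all genes was 0.01. A call by size was set at 20% below or 25% above the sham level, the same distance on the log scale. By this call 24 of 32 members were lower, against 9.75% of all genes. None was higher, against 2918 of the 21728 genes. The ratios ran from -0.81 to -0.17, and their SD of 0.17 was larger than the root mean square counting error of 0.06, and the ratios thus spread more than counting error alone gives.

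Rps21 and Rps7 were at the low end of the ratios in glutamatergic neurons. Rps21 had 18.6 CPM in the sham library and 10.6 CPM in the injury library, a ratio of -0.81 (-0.92 to -0.71). Rps7, one of the members mutated in Diamond-Blackfan anaemia, had 20.1 CPM in the sham library and 11.7 CPM in injury, a ratio of -0.78 (-0.88 to -0.68). The intervals of these members overlapped, and Rps16 lay beside them at -0.72 (-0.82 to -0.61). Rps25 was at -0.65 (-0.78 to -0.52), but its gene overlaps Trappc4 and Ccdc84 on the other strand.

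At the other end lay Rps14, Rps4x and Rps15a. Rps14, a platform protein whose loss of 1 copy underlies the anaemia of the 5q minus syndrome, had 22.5 CPM in the sham library and 20.1 CPM in injury, a ratio of -0.17 (-0.25 to -0.08). Its annotated gene spans 31.4 kb and overlaps Ndst1 on the other strand, and whether counting used the strand was not stated. Rps4x, an X-linked gene, had 13.3 CPM in the sham library and 11.5 CPM in injury, a ratio of -0.21 (-0.32 to -0.10). Rps15a had 19.8 CPM in the sham library and 17.0 CPM in injury, a ratio of -0.22 (-0.31 to -0.13). The interval of each of these 3 members lay wholly above those of Rps21 and Rps7.

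The members with well-known roles fell between these ends. Among proteins that line the mRNA entry, Rps2 had 23.2 CPM in the sham library and 17.1 CPM in injury, a ratio of -0.44 (-0.53 to -0.35), and Rps3, which also acts in DNA repair, had 11.3 and 8.41 CPM, a ratio of -0.42 (-0.55 to -0.30). Rps6, the substrate of S6 kinase, had 14.4 CPM in the sham library and 11.9 CPM in injury, a ratio of -0.27 (-0.38 to -0.16). Rpsa, which doubles as a laminin receptor at the cell surface, had 18.9 and 15.2 CPM, a ratio of -0.32 (-0.41 to -0.22). These 4 members were all lower in the injury library, and their intervals overlapped.

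For the members needed to process the precursor of the ribosomal RNA, Rps19, the gene most often mutated in Diamond-Blackfan anaemia, had 15.3 CPM in the sham library and 11.2 CPM in injury, a ratio of -0.44 (-0.55 to -0.34). Rps24 had 27.1 and 18.9 CPM, a ratio of -0.52 (-0.60 to -0.44). Rps27a, which is made as a fusion with ubiquitin, had 18.5 and 13.6 CPM, a ratio of -0.45 (-0.54 to -0.35). Rps3a1 had 23.8 and 18.9 CPM, a ratio of -0.33 (-0.42 to -0.25). The paralogs Rps27 and Rps27l, of which Rps27l is a target of p53, had ratios of -0.38 (-0.49 to -0.28) and -0.37 (-0.63 to -0.12), although Rps27l had only 528 UMIs in the class against 3118 for Rps27. A further copy outside the rule, Rps27rt, reached 0.589 CPM in sham and 0.474 CPM in injury, which is small beside the 16.2 and 12.4 CPM of Rps27.

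**Figure D1:**
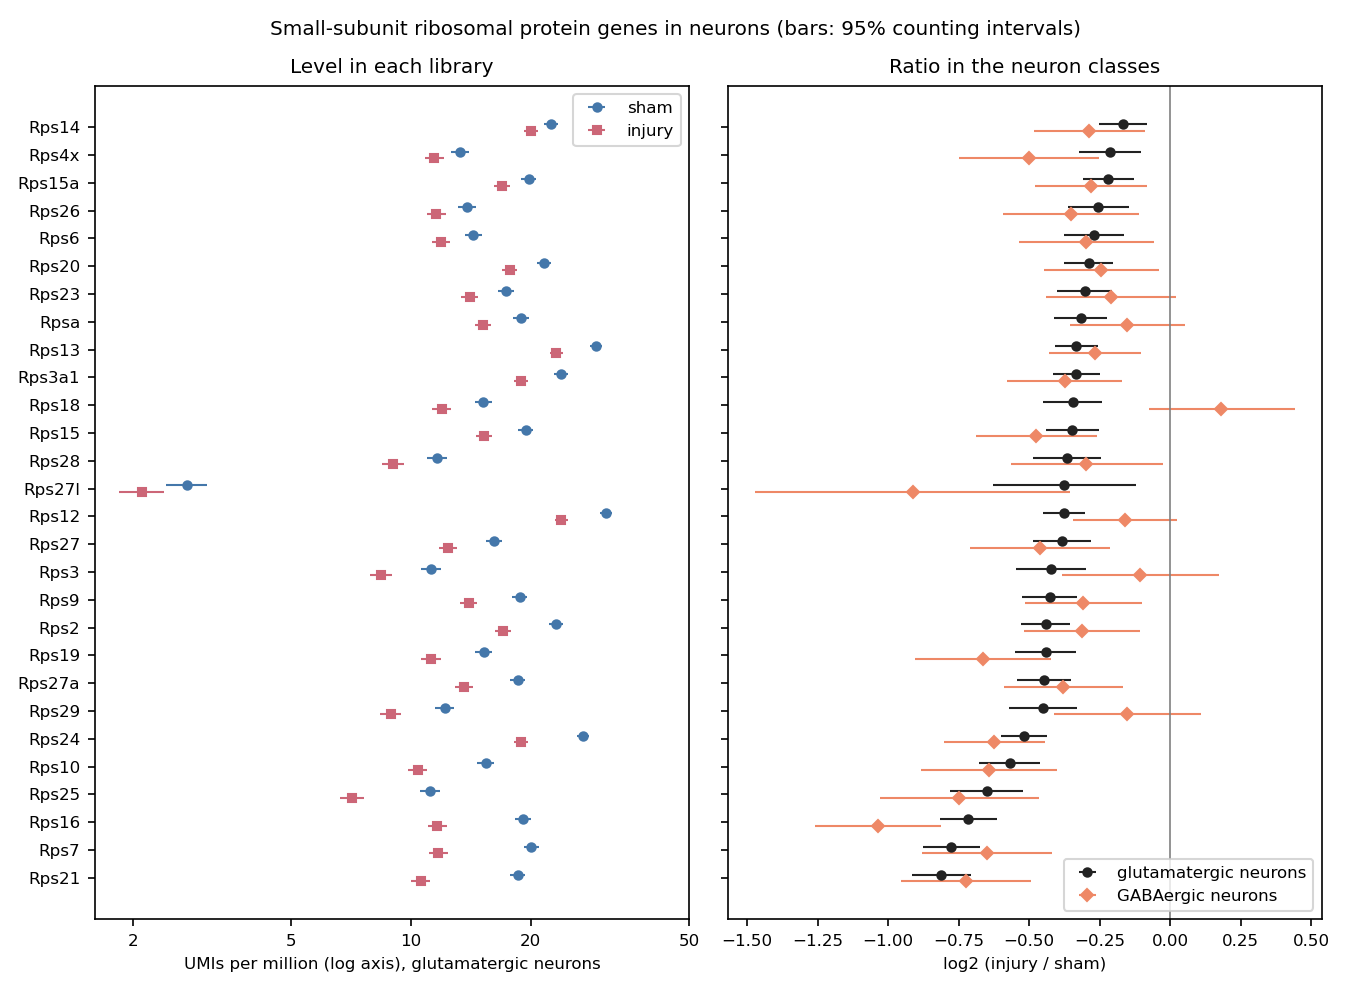
Left, level of 28 of the 32 members in glutamatergic neurons of the sham library (circles) and the injury library (squares), in CPM on a log axis. Right, log2 ratio of injury over sham in glutamatergic neurons (circles) and GABAergic neurons (diamonds), with bars for the 95% counting interval. In glutamatergic neurons all 28 injury levels lie below the sham levels, from -0.81 for Rps21 to -0.17 for Rps14.

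In GABAergic neurons 31 of 32 members had a ratio below 0, against 47.9% of the 17773 genes with at least 20 UMIs. The members summed to 715 CPM in sham and 528 CPM in injury, a ratio of -0.44 (-0.48 to -0.40), and the median member ratio was -0.36. By size, 18 of 32 members were lower by at least 20%, against 10.9% of all genes, and none was higher, against 2779 of the 17773 genes. The spread over members was wider than in glutamatergic neurons, with an SD of 0.27 against a counting error of 0.12.

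Rps16 had the lowest ratio in GABAergic neurons, with 26.0 CPM in sham and 12.7 CPM in injury, a ratio of -1.04 (-1.26 to -0.81). Rps27l was at -0.91 (-1.47 to -0.36) on 60 sham and 53 injury UMIs. Rps16 was thus among the 4 lowest members in both neuron classes. Rps18, which touches the large subunit, was above 0 with 13.5 CPM in sham and 15.3 CPM in injury, a ratio of 0.18 (-0.07 to 0.44), while in glutamatergic neurons it was at -0.35 (-0.45 to -0.24). Its gene overlaps Vps52 on the other strand. Rps3, at -0.11 (-0.38 to 0.17), and Rpsa, at -0.15 (-0.36 to 0.05), were the next highest, and the intervals of all 3 included 0. The difference between the neuron classes was not tested, and no member had intervals on opposite sides of 0 in any pair of classes.

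The neuron types were compared next, over the 17 glutamatergic and 2 GABAergic clusters that had at least 50 nuclei in each library and passed the check of their name. Cluster 19, with 195 sham and 191 injury nuclei, had glutamatergic markers but was kept out because a marker of another class, the endothelial gene Flt1, was among its 10 leading genes and none of its own was. Its ratio was -0.24 (-0.36 to -0.12), with 20 of 31 members below 0. The share of all genes below 0 was not counted in cluster 19. The summed ratio of the members was below 0 in all 19 clusters, from -0.67 to -0.18, with a median of -0.49. Of the 594 pairs of member and cluster with at least 20 UMIs, 91.8% were below 0, against 51.6% of the pairs over all genes. The lowest ratio was in glutamatergic cluster 13, led by Adgrg6, Egflam and Klhl14, with 601 CPM in sham and 378 CPM in injury, a ratio of -0.67 (-0.75 to -0.59). Cluster 10, led by Adamts9, Crybg1 and Ppp1r3a, had 545 and 343 CPM, a ratio of -0.67 (-0.74 to -0.60). Cluster 14, led by Npsr1, Col27a1 and Itga4, had 744 and 474 CPM, a ratio of -0.65 (-0.75 to -0.55).

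Of the 19 clusters, 23 and 5 had the smallest differences. Cluster 23, led by Sim1, Oxt and Tns1, had 673 CPM in the sham library and 595 CPM in injury, a ratio of -0.18 (-0.36 to 0.01), and was the only 1 of the 19 whose interval included 0, on 72 sham and 175 injury nuclei. Cluster 5, led by Glis3, Col12a1 and C1ql3, had 556 and 455 CPM, a ratio of -0.29 (-0.35 to -0.23). Clusters 12 and 8, which had Pde11a and Ptprq, from the list of habenula markers, as their first leading gene, were at -0.31 (-0.40 to -0.21) and -0.36 (-0.43 to -0.29). Clusters 2 and 3, which had C6 and Adgrf5, from the list of relay neuron markers, among their leading genes, were at -0.50 (-0.55 to -0.46) and -0.51 (-0.57 to -0.46). The intervals of clusters 2 and 3 lay below those of clusters 8 and 12. Cluster 7, with Chat and Nwd2 from the habenula list, was at -0.31 (-0.39 to -0.23), and cluster 10 had Prkcd from the relay list. Depth differed as well. Relative to the sham library, median UMIs were 1.29 and 1.51 times in clusters 2 and 3, and 0.881 and 0.636 times in clusters 8 and 12. The part of depth in these ratios was not tested.

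The GABAergic clusters also stood apart from each other. Cluster 1, led by Gad2, had 729 CPM in the sham library and 558 CPM in injury, a ratio of -0.38 (-0.43 to -0.34). Cluster 9, led by Ubash3b, Meis2 and Six3, of which Ubash3b and Six3 were on the list of reticular nucleus markers, had 679 and 451 CPM, a ratio of -0.59 (-0.66 to -0.51). The large-subunit genes, counted in the same nuclei, ran from -0.59 to -0.20 over the clusters. They lay above the small-subunit interval in clusters 2, 4 and 10. There they were at -0.447, -0.458 and -0.567, against small-subunit intervals of -0.547 to -0.459, -0.585 to -0.467 and -0.738 to -0.596. The difference between the subunits was not tested.

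**Figure D2:**
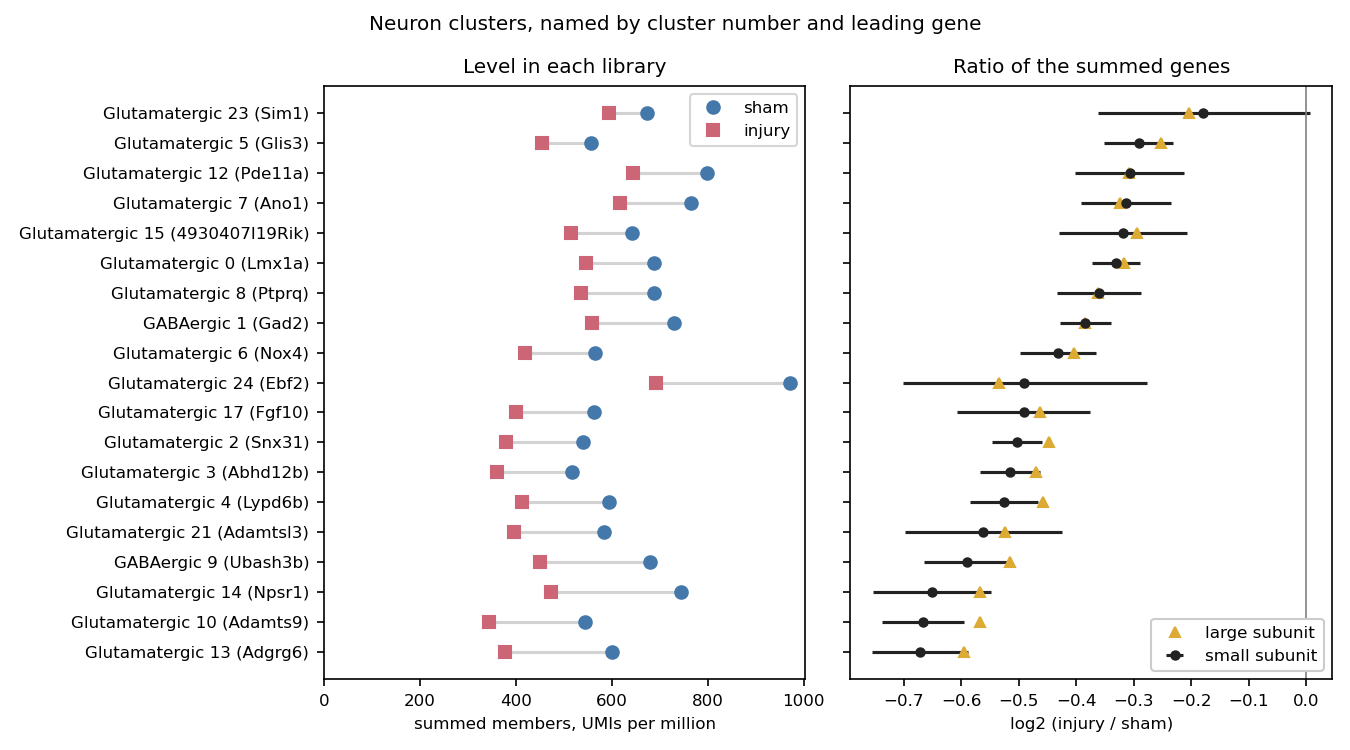
Left, summed level of the members in each of the 19 neuron clusters, in CPM, for the sham library (circles) and the injury library (squares). Right, log2 ratio of injury over sham of the summed small-subunit genes with its 95% counting interval (circles) and of the summed large-subunit genes (triangles). All 19 circles lie left of 0, and only the bar of glutamatergic cluster 23 reaches it.

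The number of neuron clusters with a ratio below 0 varied over the members, and whether it varied more than counting error gives was not tested. Of the 594 pairs of member and cluster, 283 had an interval wholly below 0 and none wholly above 0. The same count of intervals was not made over all genes, for which 51.6% of pairs had a ratio below 0. Rps7, Rps13, Rps21, Rps24 and Rps27a were among those below 0 in every 1 of the 19 clusters. How many of all genes were below 0 in every cluster was not counted. Rps21 ran from -1.23 in cluster 3 to -0.38 in cluster 9, and Rps7 from -1.39 in cluster 24 to -0.40 in cluster 23. Rps4x was below 0 in 13 of 19 clusters and ran from -0.82 in cluster 10 to 0.48 in cluster 23. Rps18 was below 0 in 14 of 18 clusters and was highest in GABAergic cluster 9, at 0.33. Clusters 23 and 24 held the ends of many of these ranges and were also the smallest, with 72 and 71 sham nuclei.

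In oligodendrocytes 31 of 32 members had a ratio below 0, against 54.3% of 11940 genes. The members summed to 1356 CPM in sham and 980 CPM in injury, a ratio of -0.47 (-0.54 to -0.40). Their median was -0.46 and the median over all genes was -0.04. By size 22 of 32 members were lower, against 22.3% of all genes, and none was higher, against 2052 of the 11940 genes. After thinning, in which each nucleus is cut at random to 3000 UMIs and shallower nuclei are left out, only 10 members still reached 20 UMIs, and 7 of these were lower, against 25.8% of genes. The SD over members of 0.22 was no larger than the counting error of 0.25, and an order of the members was not detectable at this depth.

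Single values in oligodendrocytes are given without reading an order from them. Rps15a, among the highest in glutamatergic neurons, had 37.4 CPM in the sham library and 21.5 CPM in the injury library of this class, a ratio of -0.80 (-1.28 to -0.32). Rps14, the highest of all in glutamatergic neurons, was at -0.76 (-1.14 to -0.37). In the few nuclei left after thinning to 3000 UMIs, 66 sham and 219 injury, the Rps14 ratio was 0.39. Without thinning Rps29 was at -0.18 (-0.67 to 0.33) and Rps25 at -0.20 (-0.77 to 0.38), and their intervals overlapped those of Rps15a and Rps14. The 3 largest oligodendrocyte clusters were at -0.64 (-0.76 to -0.53), -0.37 (-0.49 to -0.25) and -0.69 (-0.90 to -0.48). The mitochondrially encoded genes moved the other way in this class, with a summed ratio of 0.53 (0.47 to 0.60) and all 13 genes above 0. Some lists of markers of other cell types also summed to higher levels in injury oligodendrocytes. The 4 GABAergic markers, 1 of them lower and 1 at 0 in the sham library, had 109 and 180 CPM, a ratio of 0.72 (0.49 to 0.96). The 9 astrocyte markers, 1 of them lower, had 182 and 252 CPM, a ratio of 0.47 (0.29 to 0.66). The 7 neuron markers, 4 of which were lower, were at 0.23 (0.14 to 0.33). Both glutamatergic markers and all 5 endothelial markers were lower, at -0.21 (-0.76 to 0.37) and -0.68 (-1.54 to 0.21). The 6 precursor markers were at 0.01 (-0.19 to 0.21). The part of these genes in the result was not tested.

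In astrocytes 28 of the 31 members with at least 20 UMIs had a ratio below 0, against 53.4% of 9371 genes, and Rps27l was under that minimum with 1 sham and 5 injury UMIs. The members summed to 992 CPM in sham and 641 CPM in injury, a ratio of -0.63 (-0.79 to -0.46), on 450 and 915 UMIs. Astrocytes had a median of 1892 UMIs per nucleus in the sham library and 2549.5 in the injury library. Within bins of depth the ratio was -0.34 (-0.55 to -0.13) at 1000 to 3000 UMIs and -0.50 (-0.82 to -0.16) at 3000 to 6000. The part of depth in the summed ratio was not tested. By size 25 of 31 members were lower, against 26.5% of all genes, and none was higher, against 2191 of the 9371 genes. After thinning to 3000 UMIs only 3 members still reached 20 UMIs, and all 3 were lower, against 30.6% of genes. Thinned to 1000 UMIs, 6 of 10 were lower, against 26.5%. Without thinning, the SD over members of 0.45 was no larger than the counting error of 0.49, and an order of the members was not detectable in astrocytes. Of the unthinned members, 8 reached 50 UMIs. Of these Rps12 was lowest at -1.02 (-1.88 to -0.13), followed by Rps3a1 at -0.96 (-1.70 to -0.20), while Rps24 at -0.50 (-1.18 to 0.21), Rps14 at -0.33 (-1.15 to 0.54) and Rps9 at 0.28 (-0.66 to 1.34) were highest. A cluster of 94 astrocytes with Gfap among its leading genes held injury nuclei only. Without it the summed ratio was -0.48 (-0.65 to -0.31). The mitochondrially encoded genes were also lower in injury astrocytes, with a summed ratio of -0.52 (-0.70 to -0.34) and 7 of 9 genes below 0. The 6 markers of oligodendrocyte precursors summed higher, with 112 and 262 CPM, although 1 was lower and 2 were at 0 in the sham library. Their part in the result was not tested.

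The rarer glia held too few UMIs to describe single members. In oligodendrocyte precursors the members summed to 897 CPM in sham and 712 CPM in injury, a ratio of -0.33 (-0.56 to -0.10), which was -0.08 after thinning each nucleus to 3000 UMIs. Among the 15 members with at least 20 UMIs, 8 had a ratio below 0, against 50.4% of all genes, and the median was -0.05. By size 4 were lower, against 22.8%, and 3 were higher, against 22.3%, so neither share stood far from that of all genes. The 8 oligodendrocyte markers summed in precursors to 301 CPM (sham) and 633 CPM (injury), a ratio of 1.07 (0.73 to 1.42), with 1 of them at 0 in the sham library. In microglia the members summed to 1810 CPM in sham and 1291 CPM in injury, a ratio of -0.49 (-0.90 to -0.05), on 58 and 267 UMIs. Only 3 members, Rps9 and Rps12 among them, reached 20 UMIs there, with 2 of 3 below 0, against 53.9% of all genes, and 1 of 3 lower by at least 20%, against 36.3%, and the median was -0.29. In the same nuclei the 9 microglia markers were at -0.30 (-0.48 to -0.12), the 7 neuron markers at 0.61 (0.11 to 1.15) and the 8 oligodendrocyte markers, 6 of them at 0 in the sham library, at 2.03 (1.08 to 3.17), with 281 and 1146 CPM. The part of these markers in the results for precursors and microglia was not tested. With scaling factors by the trimmed mean of M values (TMM), which moved the microglia ratios by 0.39, the summed ratio in microglia was -0.10. Without nuclei called doublets, 12 of the 27 sham and 146 of the 154 injury microglia were left, and the summed ratio was -0.65.

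The members were also summed in a pair of small named clusters. In differentiating oligodendrocytes, led by Bcas1os2, Bcas1 and Tns3, their level was 747 CPM (sham) and 778 CPM (injury), a ratio of 0.06 (-0.37 to 0.50), on 24 and 31 nuclei. In mural cells, which wrap blood vessels, it was 3992 CPM (sham) and 704 CPM (injury), a ratio of -2.50 (-3.28 to -1.76). The mural value rests on 45 UMIs from 9 nuclei of the sham library and 24 from 21 of the injury library.

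**Figure D3:**
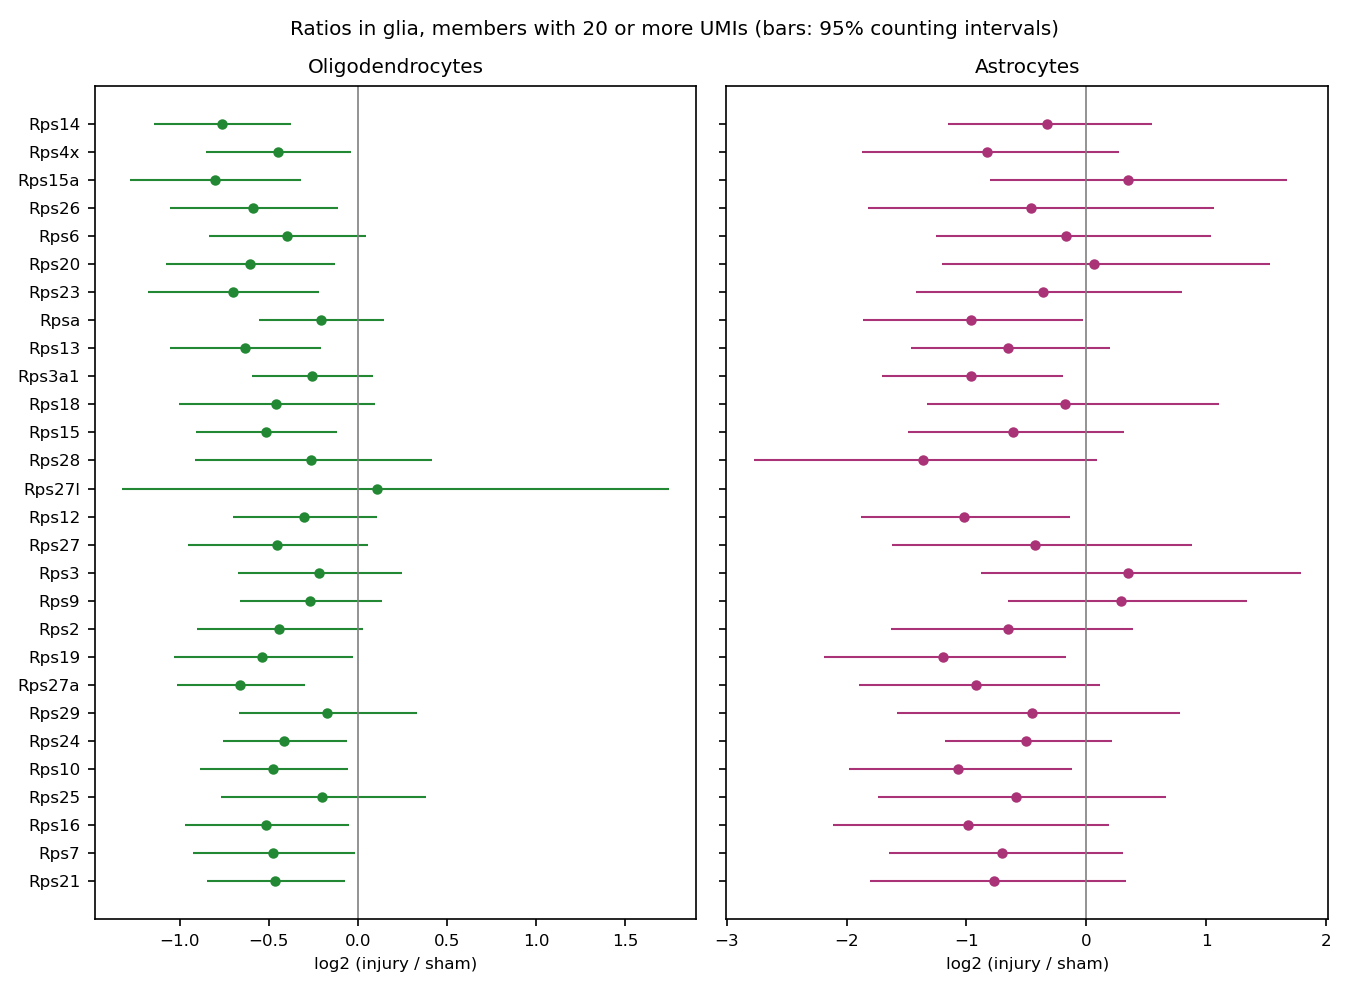
Log2 ratio of injury over sham for those of the same 28 members with at least 20 UMIs in oligodendrocytes (left) and astrocytes (right), in the order of the glutamatergic ratios, with bars for the 95% counting interval. Most points lie below 0, with Rps27l the exception in oligodendrocytes and Rps20, Rps9, Rps3 and Rps15a at 0.06, 0.28, 0.35 and 0.35 in astrocytes, where the prior of 0.5 UMI used for counts of members puts Rps20 below 0.

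Across cell types, the summed level of the members in the sham library was lowest in glutamatergic neurons at 601 CPM, followed by GABAergic neurons at 715 CPM, oligodendrocyte precursors at 897 CPM, astrocytes at 992 CPM, oligodendrocytes at 1356 CPM and microglia at 1810 CPM. Astrocytes and precursors exchanged places in the injury library, at 641 and 712 CPM. Without the injury-only cluster, injury astrocytes were at 710 CPM (660 to 762), an interval that overlapped that of precursors (640 to 789). The other classes kept the order of the sham library. In the sham library this order followed the median UMIs per nucleus, which were 7874 in glutamatergic neurons and 1146 in microglia at its ends, and levels were also higher in shallower nuclei within a class. In sham glutamatergic neurons of 1000 to 3000 UMIs the members reached 1335 CPM, and in those over 12000 UMIs 473 CPM. These bins held means of 3.01 and 7.87 member UMIs per nucleus, while the mean UMIs per nucleus rose from 2253 to 16642.

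In both neuron classes the members were lower in the injury library in each of 4 bins of depth. In glutamatergic neurons the ratio was -0.52 (-0.62 to -0.43) at 1000 to 3000 UMIs, -0.35 (-0.39 to -0.31) at 3000 to 6000, -0.41 (-0.44 to -0.39) at 6000 to 12000 and -0.46 (-0.49 to -0.43) above 12000. GABAergic neurons ranged from -0.52 to -0.37 over the same bins. Oligodendrocytes and astrocytes of 1000 to 3000 and 3000 to 6000 UMIs were between -0.50 and -0.34, and precursors were at -0.47 (-0.82 to -0.11) in the shallower and -0.18 (-0.51 to 0.15) in the deeper of these bins. After each nucleus was thinned to 3000 UMIs, with 700 sham and 788 injury nuclei left out as shallower, glutamatergic neurons had a mean of 1.99 member UMIs in sham and 1.498 in injury. The upper quartile was 3 in sham and 2 in injury. Nuclei with no member UMI made up 16.7% of sham and 25.1% of injury nuclei, whereas before thinning they made up 1.82% and 4.07%. These shares describe 1 library each, and the nuclei are not replicates.

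**Figure D4:**
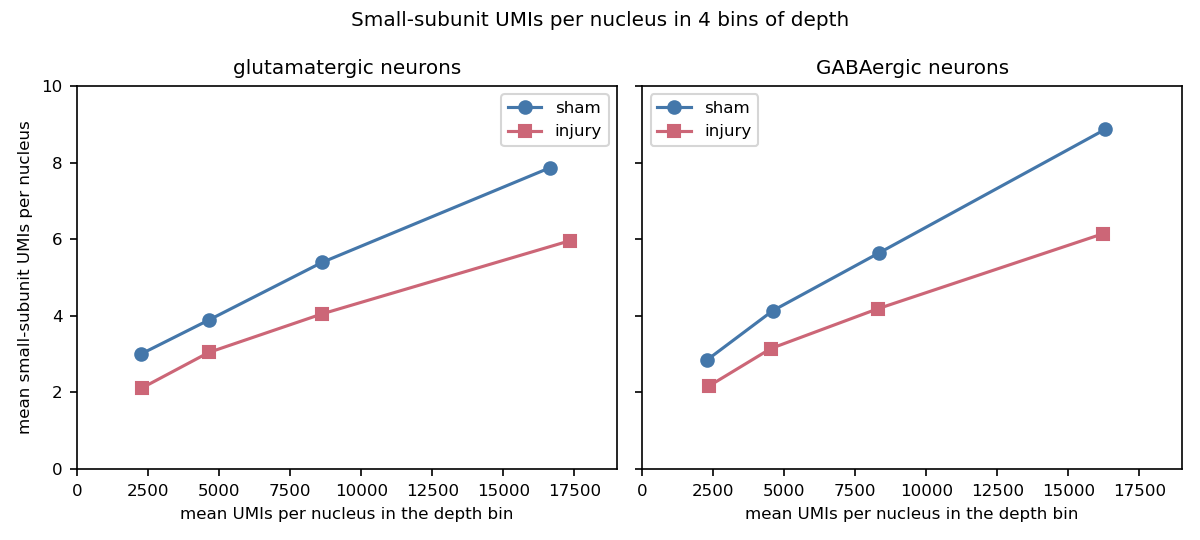
Mean member UMIs per nucleus against mean UMIs per nucleus in 4 bins of depth, for glutamatergic neurons (left) and GABAergic neurons (right) of the sham library (circles) and the injury library (squares). The injury points lie below the sham points in every bin, for example 5.96 against 7.87 member UMIs in the deepest glutamatergic nuclei.

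Other proteins of the ribosome were also examined. In glutamatergic neurons Fau, which yields the 40S protein S30 as a ubiquitin-like fusion, was at -0.47 (-0.57 to -0.38), and Rack1, the signalling scaffold on the back of the 40S head, was at -0.18 (-0.30 to -0.06). Of the 50 large-subunit genes with at least 20 UMIs, 33 were lower by at least 20%, against the 9.75% of all genes. None was higher, against 2918 of the 21728 genes, and their median was -0.42 with 3 genes above 0. In oligodendrocytes their median was -0.45 and in astrocytes -0.72.

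Genes of other function with short, abundant mRNAs were compared as well. Of 21 short, abundant cytoplasmic mRNAs that encode no ribosomal protein, 14 were lower by at least 20% in glutamatergic neurons, again against 9.75%. Of these 21 genes 1 was higher, against 2918 of the 21728 genes, and the median was -0.37. Tmsb10, an actin-binding peptide, was at -0.99 (-1.099 to -0.884) and Actb at -0.74 (-0.83 to -0.66), while Eef1a1, an elongation factor with a TOP motif, was at -0.03 (-0.09 to 0.04). In oligodendrocytes 14 of 20 of these genes were lower, against 22.3% of all genes, with a median of -0.48. Over the 6634 genes whose span is under 10 kb, a limit met by 30 of the 32 members, the glutamatergic median was -0.08 and 21.6% were lower by at least 20%. Genes under this limit had a median of -0.26 with 44.4% lower in oligodendrocytes and of -0.34 with 50.6% lower in astrocytes. The 8 nuclear long noncoding RNAs had a median of 0.03 in glutamatergic neurons, 0.25 in oligodendrocytes and 0.10 in astrocytes, while their summed ratio was -0.25 (-0.26 to -0.24) in oligodendrocytes. In glutamatergic neurons Malat1 had 30036 CPM in the sham library and 29862 CPM in injury.

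Genes that build the 40S subunit or control its mRNAs were read in glutamatergic neurons against the same 9.75% of all genes that were lower. For higher genes the background was 2918 of the 21728 genes. Of the 49 genes for 40S assembly, 2, or 4.08%, were lower by at least 20% in glutamatergic neurons, Imp3 at -0.41 (-0.57 to -0.24) and Rps19bp1 at -0.39 (-0.63 to -0.16), and none was higher. Their median was -0.01. Of the 14 genes that control TOP mRNAs, 2, or 14.3%, were lower, Rps6kb2 at -0.40 (-0.46 to -0.35) and the cap-binding protein Eif4e at -0.34 (-0.39 to -0.28), and none was higher. Larp1 was at 0.12 (0.08 to 0.16), Mtor at 0.16 (0.12 to 0.21) and Rptor at 0.29 (0.25 to 0.32), below the fold of a call. None of the 8 genes that act on the 40S subunit of stalled ribosomes was past the fold in either direction, among them Zfp598, which ubiquitinates Rps10 and Rps20, at -0.17 (-0.23 to -0.10). In oligodendrocytes the assembly genes had a median of -0.03, and 8 of 48 were lower and 7 higher. Of all genes there, 22.3% were lower and 2052 of 11940 were higher. In astrocytes their median was -0.19 and their summed ratio -0.18 (-0.34 to -0.03). There 10 of 32 were lower and 5 higher, against 26.5% of all genes lower and 2191 of 9371 higher.

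**Figure D5:**
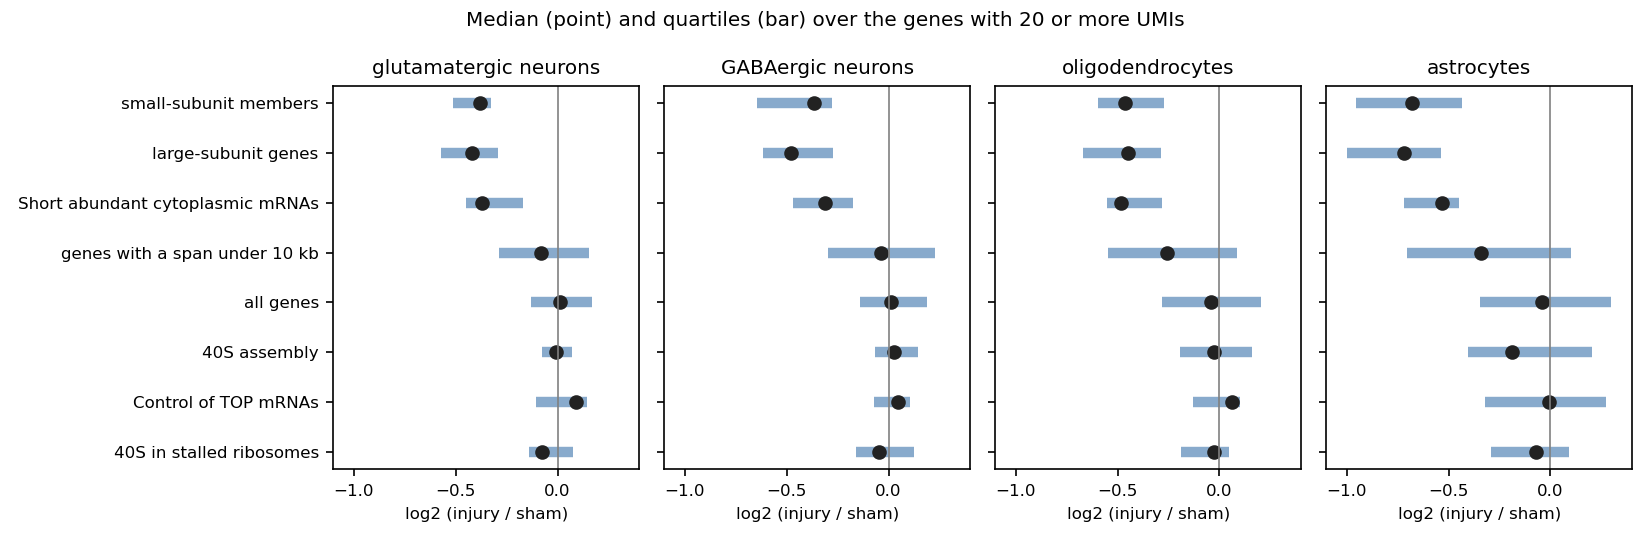
Median (point) and quartiles (bar) of the log2 ratios of injury over sham over the genes of each list with at least 20 UMIs, in 4 cell classes. The small-subunit members, the large-subunit genes and the short abundant mRNAs lie below 0 in each class, with member medians of -0.38, -0.36, -0.46 and -0.68. The medians for 40S assembly are -0.01 and 0.03 in the neuron classes, -0.03 in oligodendrocytes and -0.19 in astrocytes.

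The features of the members described here had weak rank correlations with their ratios. They lie on 13 chromosomes, and 10 of them hold between 1 and 4 small nucleolar RNA genes within their span, whose RNAs guide modification of ribosomal RNA. The glutamatergic median was -0.40 for these 10 members and -0.38 for the other 22. The rank correlation of the ratio over the 32 members was 0.20 with gene span, -0.19 with the number of exons, 0.13 with transcript length and 0.09 with the UMIs behind it, each as a description over genes counted in the same libraries. The members with a span over 10 kb, Rps14 with 31.4 kb and Rps15a with 11.8 kb, had ratios among the highest, at -0.17 and -0.22. For 8 members the annotation places a gene of the other strand over some of the same bases, and their single values are less certain. Rps2, Rps10, Rps14, Rps18, Rps25, Rps27a and Rps28 are among them. Pseudogenes could also take or lend reads, since how multiply mapped reads were treated was not stated.

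Measures of nucleus quality and of RNA from other cell types were compared in the neuron classes. In glutamatergic neurons the mitochondrially encoded genes made up 0.0198% of sham UMIs and 0.0201% of injury UMIs. Single genes among these 13 had a median of 0.29, with 9 above 0, 6 higher by at least 25% and 2 lower by at least 20%. Of all 21728 genes in this class, 11477 were above 0, 2918 higher and 2119 lower by these limits. In GABAergic neurons the median of the mitochondrially encoded genes was 0.21, with 9 of 13 above 0 and 5 higher by at least 25%. Of all 17773 genes in that class, 9252 were above 0 and 2779 higher. The 8 oligodendrocyte markers, which glutamatergic neurons should lack, summed there to 49.6 CPM (sham) and 66.2 CPM (injury), a ratio of 0.42 (0.37 to 0.47), with all 8 higher in injury and none at 0 in either library. The 9 microglia markers summed to 158 and 170 CPM. In GABAergic neurons the oligodendrocyte markers were at 0.30 (0.21 to 0.40) and the microglia markers at 0.34 (0.27 to 0.42). The part of these genes and markers in the ratios of the members was not tested.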

How the data were processed

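The deposited tables hold raw UMI counts per gene and barcode for 1 sham and 1 injury library of 10x 3′ single-nucleus RNA sequencing. Per the labels, the authors used bcl2fastq, Cell Ranger 6.0.2 and Seurat 4.0 with GRCm38; whether introns or strand entered the counts is not given in the sources used here. The lowest barcode held 500 UMIs. Symbols and positions came from GENCODE M21 (32235 of 32285 genes).

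The study's filter was applied (at most 2% mitochondrial UMIs, 200 to 7500 genes). Libraries were integrated on 1992 variable genes (Seurat 5.3.0 under R 4.3.3) without the ribosomal and other listed genes, with 30 components and resolution 0.5. Scrublet (scanpy 1.11.5) doublets were kept, and clusters over 50% doublets set apart. Clusters were named from markers, with thresholds set after the data were seen. The members and lists were chosen with earlier results of these data known. A prior of 0.5 UMI entered medians and calls by size. Interval code was tested on simulated data. Named members were the 3 lowest and 3 highest with at least 50 UMIs in 4 classes, members of known role, and copies. Some members count in the sums but are not reported here by name. TMM factors came from edgeR 4.0.16.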

Additional observations from a re-analysis of the deposited data

Results flagged for a closer look

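Glutamatergic cluster 25, led by Glis3, Maml2 and Gpc4, held 219 injury nuclei and no sham nucleus and so entered no comparison. Its leading genes also held Dsp, from the list of dentate markers. Its members summed to 724 CPM, above the 601 CPM of the sham glutamatergic class, which called attention to it as a signal in nuclei outside the comparison. Its median UMIs were 0.819 times that of the injury library, and its level lay above the 343 to 692 CPM of the compared clusters in the injury library and within their 517 to 972 CPM in the sham library. The other glutamatergic cluster without sham nuclei, 22, had 278 injury nuclei and 423 CPM, below the class. Neurod6, from the list of cortex markers, was among the leading genes of cluster 22. Whether the nuclei of clusters 22 and 25 came from tissue outside the thalamus was not tested. GABAergic cluster 18, led by Myo5b, Ano2 and Prdm16, held 1 sham and 405 injury nuclei and was also kept out, with 460 CPM in injury. Over all kept nuclei, 1378 of the sham and 3169 of the injury library entered none of the compared classes.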

How the results depend on the processing

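The summed ratio of the members was below 0 under all 57 alternatives, which ran from -0.47 to -0.41 in glutamatergic neurons, -0.49 to -0.38 in GABAergic neurons, -0.49 to -0.34 in oligodendrocytes, -0.69 to -0.48 in astrocytes, -0.50 to -0.08 in precursors and -0.65 to -0.10 in microglia. Not every alternative changed the value. In oligodendrocytes, astrocytes, precursors and microglia, a limit of 6000 genes and resolution 1.0 left the summed ratio as reported. The summed ratio was below 0 in 17 of 17 neuron clusters that had 100 nuclei or more per library and in 27 of 27 at resolution 1.0. In glutamatergic neurons it was -0.42 as the mean over nuclei, -0.41 after thinning to 3000 UMIs and -0.47 after thinning to 1000 UMIs, an alternative chosen after seeing the data, as was leaving out the injury-only astrocytes. In GABAergic neurons it was -0.38 when thinned to 1000 UMIs and -0.49 as the mean of the clusters. Thinned to 3000 UMIs it was -0.34 in oligodendrocytes and -0.084 in precursors, and thinned to 1000 UMIs -0.10 in precursors. The median in precursors was -0.05 as reported, -0.38 with at least 50 UMIs and -0.0041 with TMM factors, and in microglia -0.29 as reported, -0.93 with no minimum and 0.10 with TMM factors.

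Fewer members reached the minimum under some alternatives. Thinning to 3000 UMIs left 7 of 10 members tested lower by at least 20% in oligodendrocytes (25.8% of genes), 3 of 3 in astrocytes (30.6%) and 0 of 1 in precursors (24.9%), and thinning to 1000 UMIs left 6 of 10 in astrocytes (26.5%) and 0 in precursors, where 0 were tested. A minimum of 50 UMIs left 7 of 8 in astrocytes (20.8%), 1 of 1 in precursors (16.4%) and 0 in microglia, where 0 were tested, and a prior of 2 UMIs gave 2 in microglia. Of 1132 alternatives for single members, 15 changed sign, 11 of them under thinning, with 2 in glutamatergic neurons, 4 in GABAergic neurons, 6 in oligodendrocytes and 3 in astrocytes, and the cause was not tested. Thinned to 1000 UMIs, Rps27 was at 0.0089 in GABAergic neurons, Rps7 at 0.11 in oligodendrocytes and Rps3 at -0.082 in astrocytes. Thinned to 3000 UMIs, Rps14 was at 0.39 in oligodendrocytes. Microglia were not thinned to 3000 UMIs because no sham nucleus was deep enough. No replicate could be left out with 1 library per group. No paired analysis was possible because the result comes from no test and the groups share no replicate pairs. Depth limits single members in astrocytes, precursors and microglia.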
